A study of Mus musculus with 10 samples.

Results

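The core circadian clock genes were followed in mouse hearts that carried a Noonan syndrome variant of Rit1. They were taken by name, as the rows Arntl, Clock, Npas2, Per1, Per2, Per3, Nr1d1, Nr1d2, Dbp and Ciart, which are 10 of the 54532 genes in the deposited table. RNA-seq was done on hearts of Rit1 M90I/+ mice that had received trametinib, an allosteric inhibitor of MEK1 and MEK2 (MEKi, 5 hearts), or vehicle alone (5 hearts). The daily trametinib dose was 1 mg/kg, begun at 4 weeks of age and given for 20 weeks, and the vehicle was a carboxymethylcellulose and Tween suspension without drug. Both groups carried the same heterozygous variant, recombined by a cytomegalovirus-promoter Cre deleter, so the change was not limited to cardiomyocytes and no heart with wild-type Rit1 entered the comparison. The study included littermates of both sexes, but the labels give no sex for the hearts compared here. Sex-linked transcripts, given below, divided these hearts exactly as treatment did. The study's methods place euthanasia at a fixed, short interval after a last dose in the morning. The clock hour of that dose, and so of each heart, is not given in the sources used here.

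The mammalian clock is a loop of transcription and repression that runs in nearly every cell, cardiomyocytes included. ARNTL (also called BMAL1) pairs with CLOCK or its paralogue NPAS2, binds E-box sequences and switches on the Per and Cry genes, the Nr1d1 and Nr1d2 genes and the outputs Dbp and Ciart. PER and CRY proteins then repress ARNTL and CLOCK, while the nuclear receptors encoded by Nr1d1 and Nr1d2 (REV-ERB alpha and beta) repress Arntl through ROR elements. Arntl, Clock and Npas2 messages peak around the change from night to day and are called morning-phase here. The other 7 transcripts peak later, from the REV-ERB messages in the day to the Per messages around dusk, and are called evening-phase here. A heart sampled once shows a single phase of this cycle, and fewer cells of a type cannot be told apart from less RNA per cell in bulk tissue.

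The regulatory letters of this loop were looked for in the RefSeq promoters (GRCm38.p6, 250 bases before to 50 after each start), which were found for 9 of the 10 genes (all but Per2). Both strands were searched for the E-box CACGTG, the D-box TTATGTAA or TTACGTAA bound by DBP and NFIL3, and the ROR element TAGGTCA or TGGGTCA. The E-box was found for 2 genes, the D-box for 1 and the ROR element for 1, and 5 genes held none of these letters in the window. Of 32851 RefSeq promoters, 7.15% held the E-box, 1.06% the D-box and 6.45% the ROR element. The matched windows are shown because the loop is known to work through these letters, with the motif in capitals and each sequence written 5′ to 3′ on the strand of its gene. A match describes the letters and is not evidence that a factor bound there. The Ciart window is chr3:95882229-95882478 on the minus strand, with E-boxes that begin 116, 58 and 44 bases before the start. The Per1 window is chr11:69098699-69098948 on the plus strand, with 1 E-box 166 bases before the start, and it lies inside the span that GENCODE gives the gene. The Per3 window is chr4:151044666-151044915 on the minus strand, with D-boxes 205 and 158 bases before the start. The Arntl match lies in the promoter entry whose upstream window is chr7:113207261-113207510. It begins at base 31 after the start of that entry on the plus strand, and 27 bases around it are given, chr7:113207531-113207557. The Arntl entry with the upstream window chr7:113207215-113207464 held no match.
Ciart: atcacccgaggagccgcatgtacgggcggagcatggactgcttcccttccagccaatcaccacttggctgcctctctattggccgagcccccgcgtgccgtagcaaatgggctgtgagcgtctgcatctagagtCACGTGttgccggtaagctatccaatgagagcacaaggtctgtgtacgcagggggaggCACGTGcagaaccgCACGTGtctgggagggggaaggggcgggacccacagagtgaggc
Per1: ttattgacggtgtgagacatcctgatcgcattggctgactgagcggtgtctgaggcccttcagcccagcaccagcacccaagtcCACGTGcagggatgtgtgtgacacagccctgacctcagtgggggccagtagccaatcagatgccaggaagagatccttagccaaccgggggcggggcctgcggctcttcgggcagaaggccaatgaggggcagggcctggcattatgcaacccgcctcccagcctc
Per3: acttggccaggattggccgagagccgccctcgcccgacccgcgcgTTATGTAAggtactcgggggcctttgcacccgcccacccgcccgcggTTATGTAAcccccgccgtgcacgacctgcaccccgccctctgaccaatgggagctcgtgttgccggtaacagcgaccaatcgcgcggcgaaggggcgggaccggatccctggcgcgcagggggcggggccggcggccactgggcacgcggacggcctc
Arntl: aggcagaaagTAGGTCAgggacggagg

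Levels are given as FPKM (fragments per kilobase of gene, scaled to the size of the library), which account for gene length and can be compared between genes. The hearts had from 13647167 to 18474002 fragments assigned to genes, so that Per1 stood on 292 to 707 fragments per heart and Dbp on 690 to 1814. Differences are given on the log2(FPKM + 0.1) scale, which understates changes of low genes, and were tested with limma. A mean level of 0.5 FPKM or more over the hearts was required, which 12602 genes reached. Under Benjamini-Hochberg adjustment at a threshold of 0.05, 10 of these genes (0.0794%) were called between MEKi and vehicle. The 3 of lowest p among them were the sex-linked Ddx3y, Eif2s3y and Xist, described below. Cardiomyocyte markers were high in every heart, with a summed Myh6, Tnnt2, Ryr2, Actn2 and Tnni3 level of 5131 to 7467 FPKM in vehicle and 5222 to 7872 FPKM in MEKi-treated hearts. The summed endothelial, fibroblast and macrophage markers ran from 69.4 to 112, 112 to 168 and 18.9 to 34.7 FPKM in vehicle and from 66.8 to 83.4, 106 to 145 and 17.0 to 23.0 FPKM in MEKi-treated hearts. Those of smooth muscle and adipocytes ran from 2.28 to 8.62 and 0.365 to 91.7 FPKM in vehicle and from 2.91 to 9.80 and 5.21 to 89.4 FPKM in MEKi-treated hearts, and of all these lists the groups overlapped. The skeletal muscle list (Myh4, Tnnt3 and Acta1) summed to 46.9 to 263 FPKM in vehicle and 15.0 to 247 FPKM in MEKi-treated hearts. Nearly all of that sum was Acta1, at 14.9 to 262 FPKM over the hearts. Tnnt3 was at no more than 0.651 FPKM, and the myosin Myh4 was listed at 0 in all 10 hearts. Some libraries stood apart. Vehicle hearts 4 and 5 and MEKi-treated heart 2 were high in 3 atrial transcripts (Sln, Myl7 and Myl4), whose sum ran from 2.38 to 837 FPKM in vehicle and from 1.82 to 678 FPKM in MEKi-treated hearts. Vehicle hearts 4 and 5 were also high in the erythroid transcripts Hba-a1, Hbb-bs and Alas2, whose sum ran from 2691 to 23823 FPKM in vehicle and from 2706 to 6909 FPKM in MEKi-treated hearts. Xist, the X-inactivation transcript, was at 5.16 to 6.85 FPKM in the MEKi-treated hearts and at no more than 0.00662 FPKM in vehicle hearts, while the Y-linked Ddx3y and Eif2s3y were at 0 in every MEKi-treated heart and at 8.14 to 12.2 FPKM in vehicle hearts. By these 3 transcripts the vehicle hearts read as male and the MEKi-treated hearts as female. This split was the split by treatment, and sex and treatment cannot be told apart in any comparison of clock genes between the groups.

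None of the clock genes was called between the groups by limma on log2 FPKM, nor by voom on the recovered fragments, and vehicle and MEKi overlapped for all 10. Groups did not overlap for 207 of the 12602 genes tested, or 1.64%. Of the 8 clock genes that passed the filter on low values, 7 had a lower and 1 a higher mean log2 level in MEKi-treated hearts, and their median difference was -0.28 against 0.01 over all genes tested. Ciart and Per1 had an unadjusted limma p under 0.05, which is 2 of 8, where 960 of all genes tested (7.62%) did. Arntl and Npas2 averaged below 0.5 FPKM and are given by their values.

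**Figure D1:**
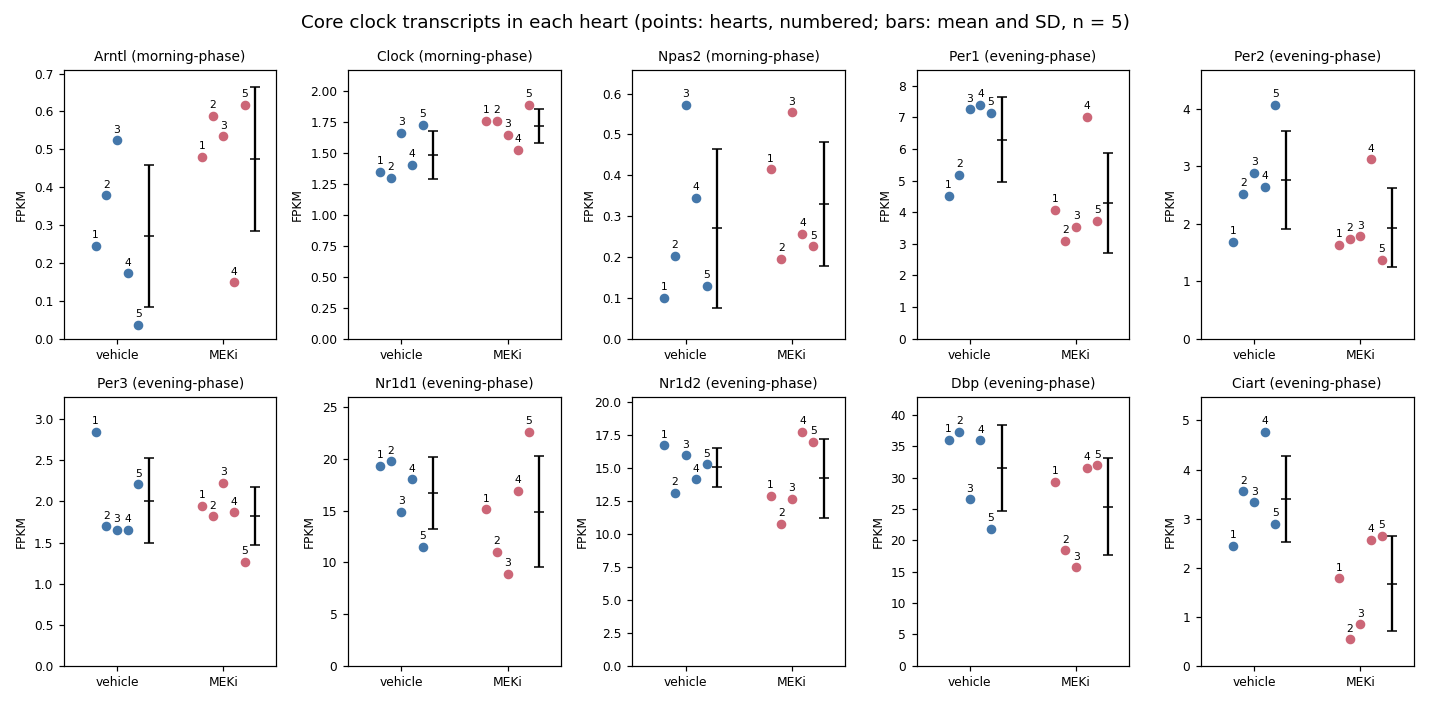
FPKM of the 10 core clock genes (vertical axes, each from 0) in vehicle (blue) and MEKi-treated (red) hearts, with 1 numbered point per heart and bars for the mean and SD of 5 hearts. Groups overlap for every gene, with 4 of 5 MEKi-treated hearts below all vehicle hearts for Per1 and 3 of 5 for Ciart.

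The clock transcripts spanned a wide range of levels. Dbp was the most abundant with a mean of 28.5 FPKM over the 10 hearts, followed by Nr1d1 at 15.8 and Nr1d2 at 14.6 FPKM. Per1 followed at 5.29, Ciart at 2.54, Per2 at 2.34, Per3 at 1.92 and Clock at 1.60 FPKM, and Arntl (0.372 FPKM) and Npas2 (0.299 FPKM) were lowest. The range of hearts separated Nr1d2 (lowest heart, 10.8 FPKM) from Per1 (highest heart, 7.40 FPKM), and Clock (lowest heart, 1.30 FPKM) from Arntl (highest heart, 0.618 FPKM). The other neighbours in this order overlapped across hearts. The 3 activators were thus the 3 lowest of the 10 transcripts.

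Among the activators, Arntl (chr7:113207465-113314126, plus strand), the one subunit that the loop cannot replace, was among the 2 least abundant. It was at 0.245, 0.378, 0.524, 0.172 and 0.0365 FPKM in vehicle hearts 1 to 5 and at 0.481, 0.589, 0.534, 0.149 and 0.618 FPKM in MEKi-treated hearts 1 to 5. Of the MEKi-treated hearts, 4 lay above the vehicle median and 3 above every vehicle heart, while MEKi-treated heart 4 lay below 4 of the vehicle hearts. The means were 0.271 ± 0.188 FPKM for vehicle and 0.474 ± 0.189 FPKM for MEKi (SD, n = 5), a difference of 0.71 on the log2 scale that was within the spread of the hearts (two-sided exact permutation test, p = 0.159, where 0.00794 is the smallest possible). Arntl rested on 4 to 76 fragments per heart, so its counting error is large, and the low value of vehicle heart 5 stands on 4 fragments.

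Clock (chr5:76209868-76304792, minus strand), the partner of ARNTL, was at 1.35, 1.30, 1.67, 1.41 and 1.73 FPKM in vehicle hearts and at 1.76, 1.76, 1.65, 1.53 and 1.89 FPKM in MEKi-treated hearts. It had the smallest spread of the 8 clock genes tested. All 5 MEKi-treated hearts lay above the vehicle median, and vehicle hearts 3 and 5 lay within the MEKi range. The means were 1.49 ± 0.194 and 1.72 ± 0.137 FPKM (SD, n = 5), a log2 difference of 0.20 (SE 0.12) that was not called (limma, adjusted p = 0.741).

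Npas2 (chr1:39193731-39363236, plus strand), which can take the place of CLOCK, was at 0.0992, 0.203, 0.573, 0.345 and 0.129 FPKM in vehicle hearts and at 0.414, 0.195, 0.554, 0.257 and 0.226 FPKM in MEKi-treated hearts. The groups were mixed throughout this range, with vehicle heart 3 highest and vehicle heart 1 lowest. Means of 0.270 ± 0.194 and 0.329 ± 0.152 FPKM (SD, n = 5) did not separate (exact permutation test, p = 0.444), on 8 to 39 fragments per heart.

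The Period genes encode the repressors that bind CRY proteins and close the loop. Per1 (chr11:69095217-69109960, plus strand) was at 4.51, 5.19, 7.26, 7.40 and 7.14 FPKM in vehicle hearts and at 4.08, 3.09, 3.53, 7.02 and 3.72 FPKM in MEKi-treated hearts. Every MEKi-treated heart except number 4 lay below the lowest vehicle heart, and MEKi-treated heart 4 lay just under the 3 highest vehicle hearts. The means of 6.30 ± 1.35 and 4.29 ± 1.57 FPKM (SD, n = 5) differed by -31.9% and by -0.58 on the log2 scale (SE 0.22). The exact permutation test of this single gene gave p = 0.0476, and limma over all genes gave an adjusted p of 0.562, so Per1 was not called.

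Per2 (chr1:91415982-91459324, minus strand), a Period gene needed for a stable rhythm, was at 1.68, 2.52, 2.88, 2.64 and 4.07 FPKM in vehicle hearts and at 1.63, 1.74, 1.78, 3.12 and 1.37 FPKM in MEKi-treated hearts. MEKi-treated hearts 1, 2, 3 and 5 lay below every vehicle heart other than number 1, and MEKi-treated heart 4 was again apart, below vehicle heart 5 alone. The log2 difference was -0.50 (SE 0.24, limma adjusted p = 0.664), between means of 2.76 ± 0.861 and 1.93 ± 0.686 FPKM (SD, n = 5). It was -0.28 without the 3 hearts high in atrial transcripts.

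Per3 (chr4:151003652-151044665, minus strand), an accessory Period gene, was at 2.85, 1.70, 1.65, 1.65 and 2.21 FPKM in vehicle hearts and at 1.94, 1.82, 2.23, 1.87 and 1.27 FPKM in MEKi-treated hearts. Vehicle heart 1, the lowest vehicle heart in Per1 and Per2, was the highest in Per3. The log2 difference was -0.12 (SE 0.18, limma adjusted p = 0.911), and it was 0.0047 without vehicle heart 1.

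The REV-ERB receptors repress Arntl and thereby link the activators to the cycle. Nr1d1 (chr11:98767932-98775333, minus strand) was at 19.3, 19.7, 14.9, 18.0 and 11.5 FPKM in vehicle hearts and at 15.1, 11.0, 8.87, 16.9 and 22.6 FPKM in MEKi-treated hearts. The MEKi-treated hearts held both the highest (heart 5) and the lowest values (hearts 3 and 2). Means of 16.7 ± 3.48 and 14.9 ± 5.34 FPKM (SD, n = 5) gave a log2 difference of -0.21 (SE 0.24, limma adjusted p = 0.874). The difference was -0.38 to -0.043 when hearts were left out singly, nearest to 0 without MEKi-treated heart 3 and farthest without MEKi-treated heart 5. Nr1d1 shares 263 exon bases (8.55% of its own) with Thra on the opposite strand, at 9.37 to 16.6 FPKM, and the strand setting of the counting is not given in the sources used here.

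Nr1d2 (chr14:18204054-18239127, minus strand) was at 16.7, 13.1, 16.0, 14.1 and 15.3 FPKM in vehicle hearts and at 12.9, 10.8, 12.6, 17.7 and 17.0 FPKM in MEKi-treated hearts. Of the MEKi-treated hearts, 3 lay below and 2 above all vehicle hearts, so that the drug-treated group enclosed the vehicle group. Its log2 difference was -0.10 (SE 0.14, limma adjusted p = 0.904), between means of 15.0 ± 1.44 and 14.2 ± 3.00 FPKM (SD, n = 5). It was -0.00995 without MEKi-treated heart 2 and -0.19 without MEKi-treated heart 4.

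Dbp (chr7:45705088-45710203, plus strand), a PAR bZIP factor that carries the rhythm to D-box genes, was at 36.0, 37.3, 26.5, 35.9 and 21.9 FPKM in vehicle hearts and at 29.3, 18.4, 15.7, 31.6 and 31.9 FPKM in MEKi-treated hearts. The 3 highest hearts were vehicle hearts 2, 1 and 4 and the 2 lowest were MEKi-treated hearts 3 and 2, with the other 5 mixed between them. The means were 31.5 ± 6.91 and 25.4 ± 7.73 FPKM (SD, n = 5), a log2 difference of -0.34 (SE 0.23, limma adjusted p = 0.757), and -0.18 without MEKi-treated heart 3. Dbp shares 539 exon bases (18% of its own) with Sphk2 on the opposite strand, at 3.3 to 4.44 FPKM.

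Ciart (chr3:95878503-95882251, minus strand), a repressor of CLOCK and ARNTL that is itself a target of their E-boxes, had the largest difference of the clock genes tested. It was at 2.44, 3.56, 3.33, 4.76 and 2.89 FPKM in vehicle hearts and at 1.78, 0.541, 0.843, 2.57 and 2.65 FPKM in MEKi-treated hearts. MEKi-treated hearts 1, 2 and 3 lay below every vehicle heart and hearts 4 and 5 lay just above vehicle heart 1. The means of 3.40 ± 0.876 and 1.68 ± 0.966 FPKM (SD, n = 5) differed by -50.6% and by -1.16 on the log2 scale (SE 0.38). The exact permutation test of this single gene gave p = 0.0238, but Ciart was not called by limma over all genes (adjusted p = 0.482), on 21 to 150 fragments per heart. For the clock genes tested other than Per1 and Ciart, the exact permutation test gave p from 0.0635 (Clock) to 0.556 (Per3). It was not run over all genes, so no share of all genes can be set beside these p-values. Without the 3 hearts high in atrial transcripts the differences on the log2 scale were -0.74 for Ciart (limma adjusted p = 0.814) and -0.32 for Per1 (limma adjusted p = 0.922), and none of the 8 genes had an unadjusted p under 0.05. That removal was chosen after seeing the data.

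**Figure D2:**
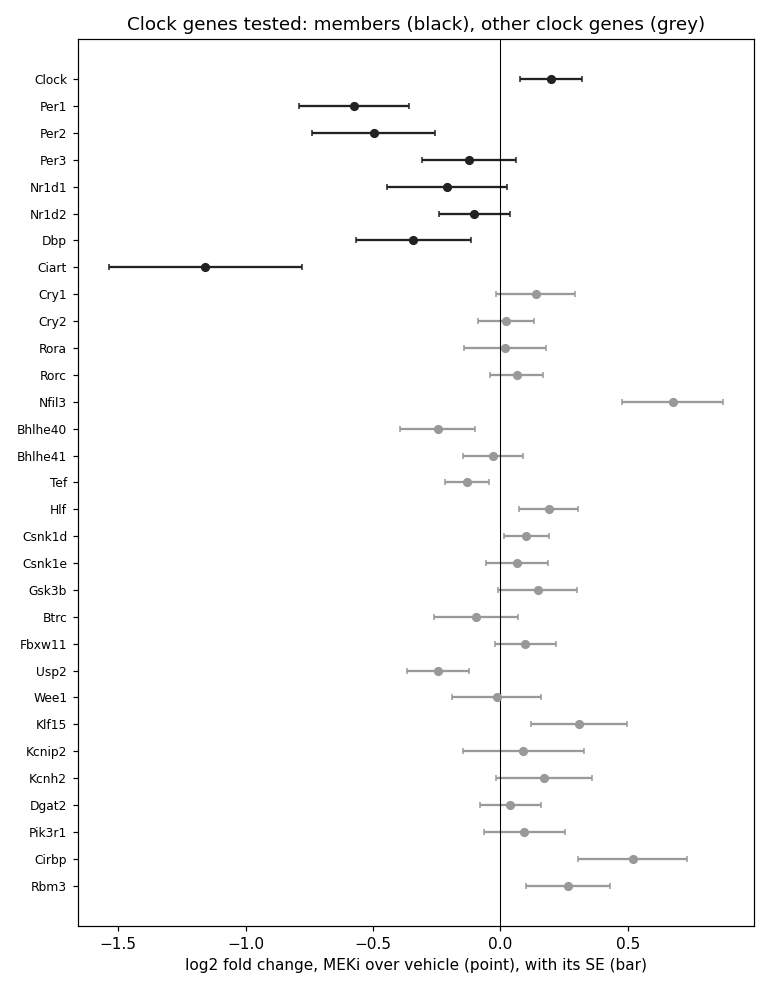
Difference in log2(FPKM + 0.1) between MEKi and vehicle (horizontal axis; point, estimate; bar, SE) for the 8 core clock genes tested (black) and 23 other clock genes (grey). Ciart lies farthest to the left at -1.16 and Nfil3 farthest to the right at 0.68, and no gene shown was called.

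The balance of the clock was described for each heart as the mean log2(FPKM + 0.1) of the 7 evening-phase genes minus that of the 3 morning-phase genes. In vehicle hearts 1 to 5 it was 3.89, 3.59, 2.96, 3.77 and 4.18, and in MEKi-treated hearts 2.75, 2.47, 2.26, 3.81 and 2.94. MEKi-treated hearts 1, 2, 3 and 5 lay below every vehicle heart, towards the morning-phase genes, whereas MEKi-treated heart 4 was the third highest of the 10 hearts. MEKi-treated heart 5 (2.94) lay only just below vehicle heart 3 (2.96). That margin is smaller than the shifts with the pseudocount given below, so the order of these hearts is not firm. The mean balance was 3.68 ± 0.457 in vehicle and 2.84 ± 0.598 in MEKi-treated hearts (SD, n = 5), a difference of -0.83 that is given as a description with no test. On this scale the morning-phase mean was -0.84 ± 0.461 in vehicle and -0.44 ± 0.297 in MEKi-treated hearts, and the evening-phase mean was 2.83 ± 0.0652 and 2.40 ± 0.358 (SD, n = 5). The morning-phase difference depended on the pseudocount, since Arntl and Npas2 lay near it: it was 0.40 with 0.1, 0.14 with 1 and 0.56 with 0.01, where the evening-phase difference was -0.43, -0.33 and -0.45 and that of the balance -0.83, -0.47 and -1.01. The evening-phase mean was closely held in vehicle hearts (2.78 to 2.95) and spread widely in MEKi-treated hearts (2.00 to 2.88). Its single genes were not as closely held. In vehicle hearts their log2 SD ran from 0.14 for Nr1d2 to 0.44 for Per2, against 0.0652 for the mean. Without the 3 hearts high in atrial transcripts the difference in balance was -0.54, with 0.24 for the morning-phase and -0.30 for the evening-phase mean. With each gene scaled to the same SD over the hearts, the difference in balance was -1.66 SD units with vehicle heart 3 (-0.50) again the lowest of its group and MEKi-treated heart 4 (1.07) again within the vehicle range.

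**Figure D3:**
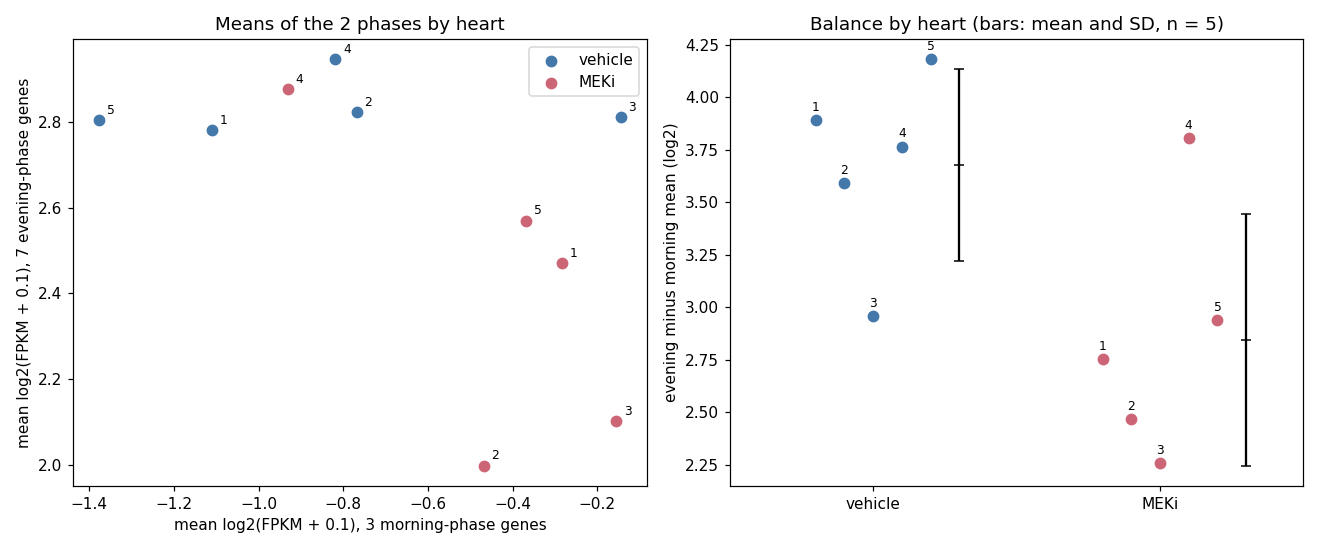
Left, mean log2(FPKM + 0.1) of the 3 morning-phase genes (horizontal axis) against that of the 7 evening-phase genes (vertical axis) in each numbered heart. Right, the balance (evening minus morning mean, log2) by group with mean and SD of 5 hearts. Of the MEKi-treated hearts, 4 of 5 lie below every vehicle heart, heart 5 (2.94) only just below vehicle heart 3 (2.96). MEKi-treated heart 4 lies at 3.81 among the vehicle hearts.

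The evening-phase genes did not keep fixed proportions to each other across hearts, and the pairs described were chosen after their values were seen. Dbp and Nr1d1 kept nearly the same proportion: the ratio of Dbp to Nr1d1 was 1.67 to 1.99 in 9 hearts and 1.41 in MEKi-treated heart 5, while Dbp itself ran over a 2.37-fold range. The ratio of Per1 to Per2 was 1.75 to 2.81. Vehicle hearts 3, 4 and 5 and MEKi-treated heart 4 were the 4 highest hearts in both genes, though in a different order. Across these pairs the proportion was loose, since the ratio of Dbp to Per2 ran from 5.37 in vehicle heart 5 to 23.3 in MEKi-treated heart 5. Vehicle heart 5 showed this most plainly, being the highest in Per2 and the third lowest in both Dbp and Nr1d1. The ratio of Dbp to Arntl, an output over its activator, ran from 29.4 in MEKi-treated heart 3 to 599 in vehicle heart 5, and that heart had 4 Arntl fragments. These ratios are descriptions over 10 libraries that share the depth and scaling of each heart.

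**Figure D4:**
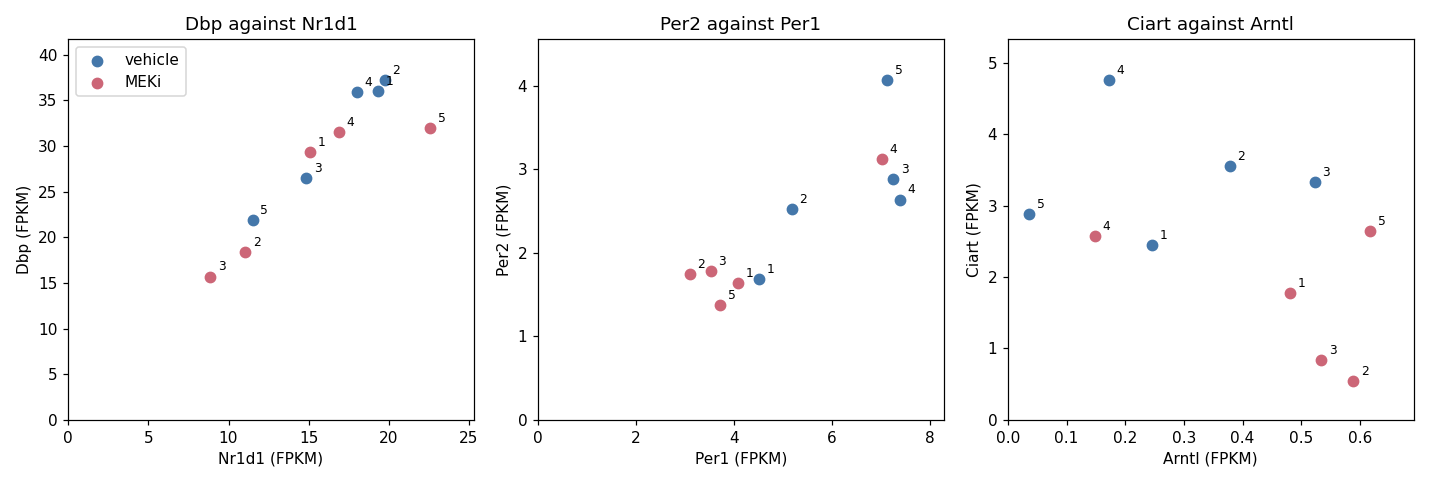
FPKM of pairs of clock genes in each numbered heart, vehicle in blue and MEKi in red, with axes from 0. Dbp and Nr1d1 lie along 1 line except MEKi-treated heart 5, and Per1 and Per2 share their 4 highest hearts. Ciart was lowest in MEKi-treated hearts 2 and 3, which were among the highest in Arntl. MEKi-treated heart 5, the highest in Arntl (0.618 FPKM), was the highest MEKi-treated heart in Ciart (2.65 FPKM).

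The clock genes also differed in how much hearts of the same group varied. The SD within groups on the log2 scale was 0.71 for Ciart, above that of 93.7% of all genes tested, and 0.44 for Nr1d1, 0.43 for Per2, 0.42 for Dbp, 0.39 for Per1 and 0.31 for Per3. Nr1d2 at 0.24 was near the median of all genes tested (0.25), and Clock at 0.15 was above only 13.6% of them.

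Which genes went with Arntl from heart to heart was asked with a limma fit of all genes on the log2 Arntl level, with the treatment group as a term. None of 12602 genes was called (0%) and voom called 1, while 1212 of them (9.62%) had an unadjusted p under 0.05. Of the clock genes, Per2 and Per1 had the steepest slopes, -0.40 (SE 0.14, limma adjusted p = 0.470) and -0.31 (SE 0.14, limma adjusted p = 0.517) per log2 unit of the Arntl level, and were 2 of 8 with an unadjusted p under 0.05. The slopes of the other 6 ran from -0.22 for Ciart to 0.08 for Nr1d1 (lowest limma adjusted p, 0.731). Vehicle heart 5 and MEKi-treated heart 4 had the Arntl levels farthest from the median, and without both the slope was 0.0038 for Per1 and 0.21 for Per2. Without vehicle heart 5 alone it was -0.43 for Per1 and -0.34 for Per2, and without MEKi-treated heart 4 alone -0.11 and -0.26. Without vehicle heart 3 alone the slopes were -0.49 and -0.56. Without the 3 hearts high in atrial transcripts, vehicle heart 5 among them, they were -0.35 and -0.37, close to those over all hearts.

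By the moderated t of this slope, the genes most like Arntl within the groups, with a mean of at least 1 FPKM, were Gal3st3, Smim3, Itgb6, Mypn, Agtr1a and Leo1. Their slopes were 0.61, 0.61, 0.63, 0.37, 0.62 and 0.42, with the lowest adjusted p, 0.102 (limma), for Gal3st3. Those most opposed to it were Efnb2, Gpihbp1, Gm14410, Rbp7, Tmem141 and Alox12, with slopes of -0.39, -0.43, -0.67, -0.51, -0.36 and -0.87. The Arntl level behind these slopes rested on 4 fragments in vehicle heart 5, and how far the slopes depend on single hearts is not given. The core clock genes were left out before these 12 were picked, so their absence is no result. Of those tested, Per2 had the lowest unadjusted p and ranked 503 among all genes tested.

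Around the core loop, 23 of 25 other clock genes passed the filter (Rorb and Fbxl21 did not), limma called none, and 17 had a higher and 6 a lower mean log2 level with MEKi, with a median difference of 0.09. Of the 23, 2 had an unadjusted p under 0.05, Nfil3 and Cirbp, a share near the 7.62% of all genes tested, so that this count is no result about these genes and their values are given as a description. Nfil3, a repressor that competes with DBP at D-boxes, belonged to the list of 8 repressors and loop receptors, of which 7 were tested, 5 higher and 2 lower. It was at 3.67, 4.42, 5.52, 3.37 and 5.39 FPKM in vehicle hearts and at 6.25, 9.98, 8.20, 4.86 and 7.10 FPKM in MEKi-treated hearts. MEKi-treated hearts 1, 2, 3 and 5 lay above every vehicle heart and heart 4 lay within the vehicle range. The log2 difference was 0.68 (SE 0.20, limma adjusted p = 0.436). Set over Dbp, its opponent, the Nfil3 level was 0.0937 to 0.246 in vehicle hearts and 0.154 to 0.542 in MEKi-treated hearts, highest in MEKi-treated hearts 2 and 3. Next in this list by moderated t were Bhlhe40, an E-box repressor, with a log2 difference of -0.25 (limma adjusted p = 0.736), and the repressor Cry1 with 0.14 (limma adjusted p = 0.873).

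The paralogues of DBP, Hlf and Tef, lay on either side of 0, with log2 differences of 0.19 (limma adjusted p = 0.741) and -0.13 (limma adjusted p = 0.757). Of the kinases and ubiquitin ligases that set the stability of clock proteins, 4 of 5 tested were higher and 1 lower. The kinases Csnk1d and Gsk3b led them by moderated t, with log2 differences of 0.10 (limma adjusted p = 0.820) and 0.15 (limma adjusted p = 0.861). The 7 cardiac clock outputs split into 5 higher and 2 lower, led by the ubiquitin protease Usp2 (log2 difference -0.24, limma adjusted p = 0.666) and the metabolic regulator Klf15 (0.31, limma adjusted p = 0.740). The cold-inducible RNA-binding genes Cirbp and Rbm3, which follow body temperature and feeding, differed by 0.52 (SE 0.21, limma adjusted p = 0.606) and 0.27 (limma adjusted p = 0.744). Cirbp was at 15.8, 10.5, 6.51, 12.6 and 7.26 FPKM in vehicle hearts and at 12.8 to 16.9 FPKM in MEKi-treated hearts, so that 4 vehicle hearts lay below all MEKi-treated hearts and vehicle heart 1 among them. In the fit on Arntl, Kcnh2, which encodes a cardiac potassium channel, had a slope of 0.28 (limma adjusted p = 0.510) and was 1 of 23 with an unadjusted p under 0.05, no more than the 9.62% of all genes in that fit. Vehicle heart 5, lowest in Arntl, was also lowest in Kcnh2.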

How the data were processed

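Poly(A)-selected RNA from whole hearts of 10 Rit1 M90I/+ mice was sequenced. The authors deposited FPKM per gene and heart; fastp, STAR 2.5, HTSeq 0.6.1 and the build mm10 are named in the submitters' processing notes, and the annotation release and strand setting are not given in the sources used here. For 98.3% of 54409 genes, the 10 clock genes included, the coordinates equal those of GENCODE M21. FPKM times gene length gave whole fragments for 100% of values (tolerance 0.001), which were used for depth and for voom. Hearts were grouped by their treatment labels. Samples numbered alike are not said to be paired. Animals are labelled as biological replicates, and p-values set a difference or slope against the spread between these hearts.

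The 12602 genes that averaged 0.5 FPKM or more were compared on log2(FPKM + 0.1) by linear models in limma 3.58.1 under R 4.3.3 (eBayes with a trend, two-sided, Benjamini-Hochberg over all genes tested), by group and, in another fit, by Arntl level with the group as a term. Single genes were also compared by an exact permutation test (two-sided) that enumerates every regrouping of the hearts. Per-heart values and figures were made in Python 3.11.15. The fits were tested on simulated data. The clock genes and the other lists were chosen with earlier results of these data known. Of the other lists, 2 genes are not reported here, and list counts leave them out. Named genes were the 10 clock genes, and of each other list those past a threshold or else the 2 to 4 of highest absolute moderated t, and the 6 genes of highest and of lowest t for Arntl with a mean of at least 1 FPKM. The 10 clock genes were left out before the genes for Arntl were picked. Clock balance and its 2 means were not tested. The alternatives were pseudocounts of 1 and 0.01, other filters, TPM, quantile normalization, voom, eBayes without a trend, a replicate block, no group term, leaving out hearts singly and the 2 farthest in Arntl, and, added after seeing the data, leaving out the 3 hearts high in atrial transcripts.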

Additional observations from a re-analysis of the deposited data

Results flagged for a closer look

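In 26 groups of 5 hearts examined by Dixon's test, 3 held a heart far from the other 4, where about 1.3 are given by chance. MEKi-treated heart 4 was at 7.02 FPKM in Per1, where the other 4 MEKi-treated hearts were at 3.09 to 4.08 FPKM. The same heart was at 3.12 FPKM in Per2, against 1.37 to 1.78 FPKM in the others. The evening-phase mean of vehicle heart 4 was 2.95 on the log2 scale, against 2.78 to 2.82 in the other vehicle hearts. Without MEKi-treated heart 4 the log2 difference between the groups was -0.77 for Per1 (limma adjusted p = 0.359) and -0.68 for Per2 (limma adjusted p = 0.575).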

How the results depend on the processing

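No clock gene was called in either fit under any alternative run. Genes called between MEKi and vehicle, 10 in all hearts, numbered 2 with a mean of at least 5 FPKM, 5 without the 3 hearts high in atrial transcripts and 5 to 13 when hearts were left out singly (5 without vehicle heart 2). With the replicate number as a block (replicate block) there were 4, none of them a clock gene. Hearts with the same number did not deviate together (correlations -0.02 to -0.15), and they are not said to be paired. Genes called with the Arntl level, 0 in all hearts, numbered 1 with a pseudocount of 0.01, on the TPM scale, with voom and without the group term, and 0 to 1 when hearts were left out singly (1 without MEKi-treated heart 2). The cause was not tested. The difference in Per3 ran from -0.20 to 0.0047 when hearts were left out singly. The slopes on Arntl without the 2 farthest hearts were 0.0038 for Per1 and 0.21 for Per2. The differences of the other 7 clock genes tested and of the balance (-1.09 to -0.47) kept their direction under the alternatives run for them, but not their size: Nr1d1 was -0.043 and Dbp -0.18 without MEKi-treated heart 3, Nr1d2 was -0.00995 without MEKi-treated heart 2, and the morning-phase difference was 0.14 to 0.56 over the pseudocounts. TPM moved the median of all genes from 0.01 to 0.09 on the log2 scale. Counts of 4 to 76 fragments limit Arntl.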
